A study of Mus musculus with 42 samples.

Results

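TRBV1 is the mouse T-cell receptor beta (TCRβ) variable segment long known as Vβ2, and its germline end places an additional cysteine inside the antigen-binding loop CDR3. Its clonotypes were taken as every row of the deposited clonotype tables whose V segment is listed as TRBV1 and whose CDR3 amino acid string holds letters alone, that is, no stop codon and no frameshift. By this rule 1625 of 28186 productive clonotypes over 5 libraries were TRBV1, out of 31576 clonotypes listed in all. In the mouse build GRCm38.p6 the RefSeq annotation places the Trbv1 V segment at chr6:40891296-40891885, first by start position of the 35 Trbv segments annotated there.

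A TCRβ chain is made in the thymus by joining 1 V, 1 D and 1 J segment, with bases trimmed from the ends and others inserted between them. CDR3 runs from the conserved cysteine near the end of V to the conserved phenylalanine of J, and its middle residues touch the peptide presented by MHC. Cysteines in the middle of CDR3 are known as a feature of strongly self-reactive receptors that are removed or diverted during thymic selection, whereas the additional cysteine of TRBV1 lies at the V end of the loop and is encoded in the germline. TRBV1 is also one of the segments used by semi-invariant natural killer T cells.

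The series asks how NIK, the NF-κB-inducing kinase, in the thymic epithelium shapes developing T cells. In KO mice Foxn1-Cre, which acts in thymic epithelial cells, met floxed alleles on both NIK chromosomes (Foxn1Cre x NIKfl/fl), and the mice labelled WT carried the same Cre with 1 floxed and 1 intact allele (Foxn1Cre x NIKfl/wt), so all animals carried Foxn1-Cre and a floxed allele. The libraries were spleen CD8 cells of KO mouse 617, spleen CD8 cells of WT mouse 614, lung CD4 cells of KO mouse 617, thymus regulatory T cells (Treg) of KO mouse 618 and spleen CD4 cells of KO mouse 597. The sort took CD25-CD62L+ cells for CD4 and CD8 and CD4+CD25hi cells for Tregs, and ages are not given in the labels. Each group has 1 library with values, so no comparison of genotype, lineage or organ has a replicate and none was tested. Mouse, and in part organ and lineage, cannot be told apart from the condition compared, and the genotype cannot be checked because T cells are not the cells in which the allele is deleted. TCRβ sequences hold no CD4, CD8 or CD25 transcript, so the sorted cell types cannot be checked either. The libraries held between 98655 and 205882 reads and between 1724 and 16703 productive clonotypes.

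The sequences listed as TRBV1 were examined for what they share. No germline sequence of the segment was used, so this cannot check the label itself. Bases and residues called germline below are those shared by most of these clonotypes. Of the 1625 TRBV1 clonotypes, 1580 began with the residues CTC (97.2%) and 1232 began with CTCSA (75.8%). The most common base at each position from the first base of CDR3, as long as over 40% of TRBV1 clonotypes had it, is given first as the shared start, with the codon of the third residue, the germline cysteine, in capitals. They are followed by the most read TRBV1 clonotype of each library with its J segment and the residues it begins with.
Shared start: tgcaccTGCagtgcaga
KO spleen CD8, TRBJ1-2, CTCSADRAN: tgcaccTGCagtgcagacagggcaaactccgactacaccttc
WT spleen CD8, TRBJ1-1, CTCSADRAN: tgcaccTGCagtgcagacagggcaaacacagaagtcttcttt
KO lung CD4, TRBJ1-1, CTCSAQG: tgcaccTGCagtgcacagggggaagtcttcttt
KO thymus Treg, TRBJ2-1, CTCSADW: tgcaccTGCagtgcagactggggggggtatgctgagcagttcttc
KO spleen CD4, TRBJ1-6, CTCSAGQ: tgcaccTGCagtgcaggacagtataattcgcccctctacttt
All 5 keep the capital codon, and they part from the shared start between its base 15 and its end.

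TRBV1 took between 5.05% and 6.79% of the productive clonotypes of each library. It made up 6.28% (166 of 2644, exact 95% interval 5.38 to 7.27) of productive clonotypes in KO spleen CD8 cells and 5.58% (932 of 16703, 5.24 to 5.94) in WT spleen CD8 cells. In the CD4 lineage it stood at 6.56% (220 of 3354, 5.74 to 7.45) in KO lung CD4 cells, 5.05% (190 of 3761, 4.37 to 5.80) in KO thymus Tregs and 6.79% (117 of 1724, 5.64 to 8.08) in KO spleen CD4 cells. From lowest to highest the order was Treg, WT spleen CD8, KO spleen CD8, KO lung CD4 and KO spleen CD4, and the intervals of every neighbouring pair in it overlapped. These intervals, and those of all shares and ratios below, cover counting error only.

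The spread of TRBV1 over the libraries was compared with that of other TRBV segments. Over the 19 segments with a mean share of at least 1%, its highest share was 1.34 times its lowest, the third smallest such ratio after those of TRBV13-2 and TRBV4, while the median segment had 1.78. The segments whose shares moved most like those of TRBV1 over the 5 libraries, by Euclidean distance of log2 shares relative to each segment's own mean, were TRBV13-2 (distance 0.36), TRBV20 (0.47) and TRBV4 (0.56).

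**Figure D1:**
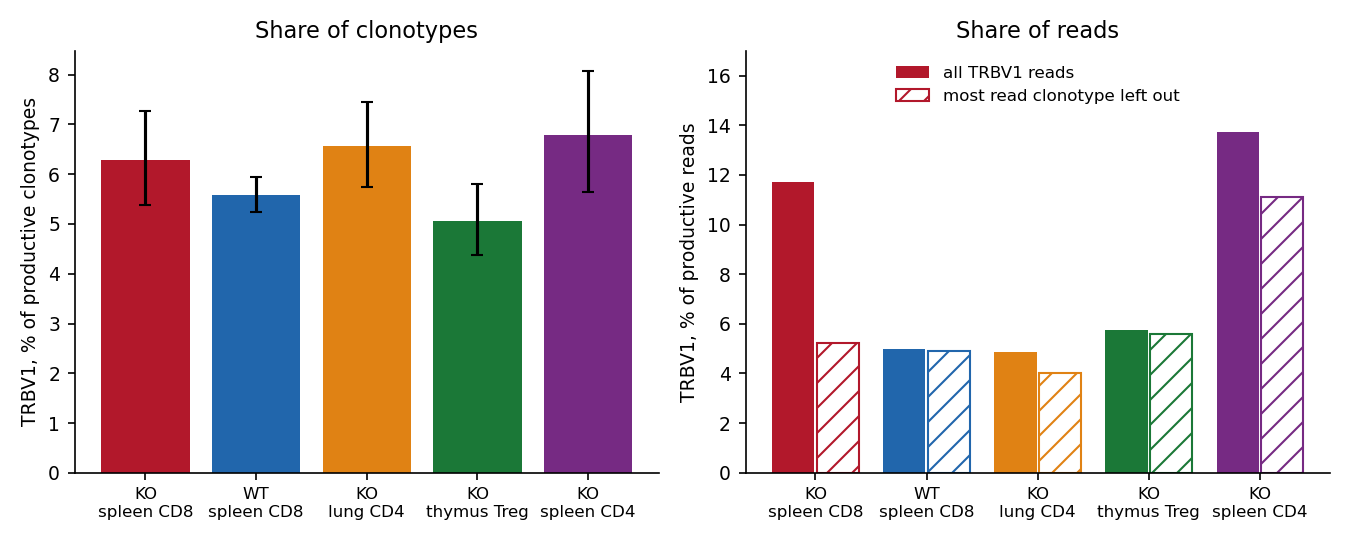
TRBV1 in 5 libraries, as percent of productive clonotypes with exact 95% intervals (left) and as percent of productive reads with all TRBV1 reads (filled) or without the most read TRBV1 clonotype (hatched, right). Clonotype shares lie between 5.05% and 6.79%, while read shares run from 4.86% to 13.7% and the KO spleen CD8 bar drops to 5.23% without 1 clonotype.

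In the pair that differed in genotype, the KO spleen CD8 share was 1.13 times the WT spleen CD8 share (interval 0.959 to 1.32). Ratios of 25% above 1 or more, or of 0.8 or less, were counted as past the fold. TRBV1 was not past it, while 15.8% of the 19 segments with at least 1% in either library were (3 of 19), and 8 of the 19 were closer to a ratio of 1. KO spleen CD8 over KO spleen CD4 gave 0.925 (0.736 to 1.16), again not past the fold, in a pair where 77.3% of 22 segments were past it. Just 1 of the 22 was closer to a ratio of 1 than TRBV1. KO spleen CD8 over KO lung CD4, both from mouse 617, gave 0.957 (0.788 to 1.16), where 78.9% of 19 segments were past the fold and none was closer to 1 than TRBV1. KO lung CD4 over KO spleen CD4 gave 0.967 (0.778 to 1.20), with 27.3% of 22 segments past the fold and 3 of them closer to 1. KO thymus Treg over KO spleen CD4 gave 0.744 (0.596 to 0.931), the sole pair in which TRBV1 was past the fold, as 18.2% of 22 segments were, and 19 of the 22 were closer to 1. That pair differs in lineage, organ and mouse at once.

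By reads, TRBV1 varied far more, and leaving out the most read clonotype changed some comparisons of libraries and hardly changed others. Its reads made up 11.7% of productive reads in KO spleen CD8 cells and 4.98% in WT spleen CD8 cells, and 4.86% in KO lung CD4 cells, 5.75% in KO thymus Tregs and 13.7% in KO spleen CD4 cells. By reads it was the leading V segment in KO spleen CD4 cells, the third in KO spleen CD8 cells and the eighth or lower in the others. The read share ratio was 2.36 for KO over WT spleen CD8 and fell to 1.07 without the most read TRBV1 clonotype of each library. KO spleen CD8 over KO lung CD4 went from 2.41 to 1.30 in the same way. KO lung CD4 over KO spleen CD4 went from 0.354 to 0.363, and KO thymus Treg over KO spleen CD4 from 0.419 to 0.503. KO spleen CD8 over KO spleen CD4 moved away from 1, from 0.854 to 0.471. In KO spleen CD4 cells the share stayed at 11.1% without that clonotype.

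The KO spleen CD8 library was led by the CTCSADRAN clonotype with TRBJ1-2, of 14 residues, with 13125 reads, 6.86% of productive reads and 58.5% of all TRBV1 reads. It ranked 2nd of all clonotypes in that library. The same nucleotide sequence had 94 reads in the WT spleen CD8 library, where it ranked 2nd among TRBV1 clonotypes, and 5 reads in the KO lung CD4 library of the same mouse. It had none in KO thymus Tregs or KO spleen CD4 cells. No other TRBV1 clonotype of the KO spleen CD8 library with the same J lay 1 base away from it. Next in KO spleen CD8 came an 11-residue CDR3 beginning CTCSAG with TRBJ2-1 (4646 reads, 2.43% of productive reads) and a CDR3 of 15 residues beginning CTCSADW, again with TRBJ2-1 (578 reads, 0.302%). The 3 together held 81.7% of the TRBV1 reads there.

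The WT spleen CD8 library had no large TRBV1 clonotype. Its 3 leading ones held 3.77% of TRBV1 reads and all began with the residues CTCSADRAN, joined to TRBJ1-1 (110 reads), TRBJ1-2 (94 reads) and TRBJ1-4 (85 reads). In nucleotides all 3 are alike through the codons of CTCSADR and part in the bases that follow.
CTCSADRAN with TRBJ1-1: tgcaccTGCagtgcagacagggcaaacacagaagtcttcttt
CTCSADRAN with TRBJ1-2: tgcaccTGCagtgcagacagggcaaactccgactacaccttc
CTCSADRAN with TRBJ1-4: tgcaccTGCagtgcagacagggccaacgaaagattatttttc
CDR3s beginning CTCSADRAN numbered 3 in KO spleen CD8, where they held 60.4% of TRBV1 reads, 7 in WT spleen CD8 (4.14%) and 2 in KO lung CD4 (0.0903%). None was listed in KO thymus Tregs or KO spleen CD4 cells. At 190 and 117 TRBV1 clonotypes a count of 0 allows shares of up to 1.58% in the Tregs and 2.56% in KO spleen CD4, taken as 3 counts of the total.

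In the CD4 lineage the leading clonotypes were others. KO lung CD4 cells were led by the CTCSAQG clonotype with TRBJ1-1 (1177 reads, 0.861% of productive reads), a 14-residue CDR3 beginning CTCSAGG with TRBJ1-6 (502 reads) and a 15-residue CDR3 beginning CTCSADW with TRBJ2-2 (349 reads). KO thymus Tregs were led by a 15-residue CDR3 beginning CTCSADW with TRBJ2-1 (331 reads, 0.167%), another of 15 residues beginning CTCSAG with TRBJ2-3 (320 reads) and a 13-residue CDR3 beginning CTCSAPG with TRBJ2-4 (291 reads). KO spleen CD4 cells were led by the CTCSAGQ clonotype with TRBJ1-6 (2843 reads, 2.95%), which was the most read clonotype of the whole library. Next came CDR3s of 14 residues beginning CTCSADH with TRBJ1-3 (1333 reads, 1.39%) and CTCSAQG with TRBJ2-2 (812 reads, 0.844%). The 3 leading clonotypes held 30.5% of TRBV1 reads in KO lung CD4 cells, 8.28% in KO thymus Tregs and 37.7% in KO spleen CD4 cells.

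**Figure D2:**
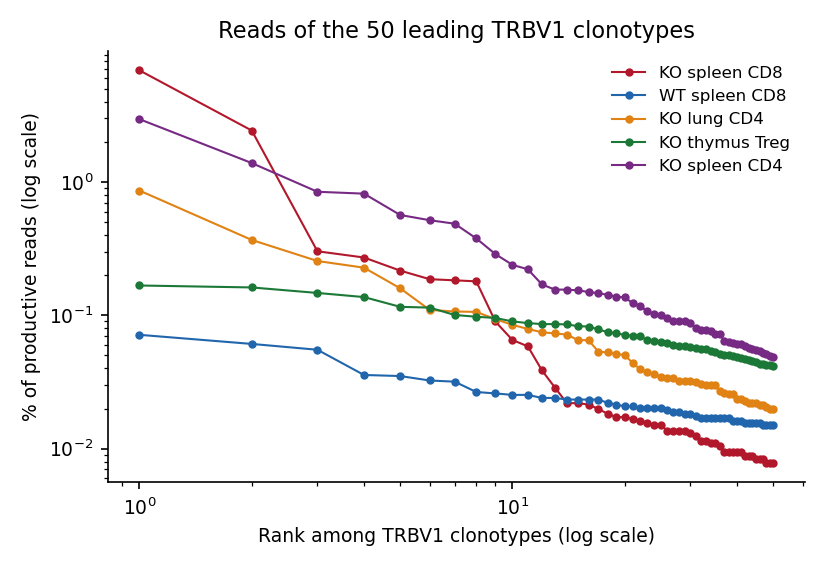
Percent of productive reads (log scale) of the 50 most read TRBV1 clonotypes in each library, by rank (log scale). KO spleen CD8 falls from 6.86% at rank 1 to 0.302% at rank 3, whereas KO thymus Treg and WT spleen CD8 start at 0.167% and 0.0714% and decline slowly.

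The germline cysteine was kept in nearly every TRBV1 clonotype. Over the 5 libraries 1602 of 1625 had cysteine as the third residue of CDR3 (98.6%), and 23 did not. By library the share was 99.4% (165 of 166, interval 96.7 to 99.98) in KO spleen CD8 and 98.7% (920 of 932, 97.8 to 99.3) in WT spleen CD8. It was 100% (220 of 220, 98.3 to 100) in KO lung CD4, 95.8% (182 of 190, 91.9 to 98.2) in KO thymus Tregs and 98.3% (115 of 117, 94.0 to 99.8) in KO spleen CD4. The ratio of these shares was 1.01 (0.993 to 1.02) for KO over WT spleen CD8 and 0.975 (0.938 to 1.01) for KO thymus Treg over KO spleen CD4, and the intervals of the other 3 pairs also held 1. Weighted by reads, at least 99.7% of TRBV1 reads carried the cysteine in each library, since the 23 clonotypes without it held 78 of 61349 TRBV1 reads.

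Most clonotypes without the cysteine had very few reads and lay 1 base from a form that keeps it. Of the 23, 17 had a single read. In 17 of the 23, a single base of the codon differed from the shared start and a further condition was met. Either the next codon was that of the shared start, or the form with the shared codon was present in the same library. With positions counted from the first base of CDR3 and the shared base written first, the changes were G8A in 8, T7C in 6, T7A in 2 and G8T in 1. For 16 of these 17 the form with the shared codon was present in the same library, with 4 to 42 reads. Among all 23 it was present for 16. Its presence was itself a way into the 17, so the count within the 17 is partly set by the definition. A further 3, each with 1 read, ran from the second codon into a stretch of bases that matches the template-switching oligonucleotide of SMART cDNA synthesis. In the remaining 3 the codon and the one after it both differed from the shared start. The codon of the third residue is in capitals, and in the first of the 3 it too differed by a single base.
KO spleen CD4, TRBJ1-4, 26 reads: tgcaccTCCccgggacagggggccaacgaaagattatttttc
KO thymus Treg, TRBJ2-5, 24 reads: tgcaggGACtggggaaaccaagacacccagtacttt
WT spleen CD8, TRBJ1-1, 3 reads: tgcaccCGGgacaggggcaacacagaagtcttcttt
Their match to the shared start ends after 7, 4 and 6 bases. With at least 2 reads required, 1347 of 1353 TRBV1 clonotypes kept the cysteine (99.6%), and the Treg share was 98.8%. Of the 8 Treg clonotypes without it, 6 had 1 read. The codon was TGC in 1597 of the 1602 clonotypes with the cysteine and TGT in 5.

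A cysteine at this place was rare in the other segments. Among 25160 standard CDR3s of the other segments, that is those starting with cysteine, ending with phenylalanine and 8 to 20 residues long, 16 had cysteine as the third residue (0.0636%), spread over 9 of 24 segments. TRBV1 supplied 99.0% of all standard CDR3s with a cysteine there. A further cysteine between the first 4 and the last 4 residues was found in 3 of 1605 standard TRBV1 CDR3s, all in WT spleen CD8, and in 49 of 25160 of the others.

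The unbroken match to the shared start gives a measure of how much of the V end was kept. D or inserted bases can also match it: base 16 was found in 71.5% of clonotypes and base 15 in 66.7%, so the last bases of a match need not come from V. The match had a median of 16 bases in KO spleen CD8 and 16 in WT spleen CD8, and of 15 in KO lung CD4, 15 in KO thymus Tregs and 16 in KO spleen CD4, out of 17. It covered at least 9 bases, through the cysteine codon, in 96.4% of KO and 96.5% of WT spleen CD8 clonotypes, 98.2% of KO lung CD4, 93.7% of KO thymus Treg and 98.3% of KO spleen CD4 clonotypes. A single changed base also ends the match, so these shares are at or below those of the cysteine itself. All 17 bases were matched in 39.8% of KO and 31.3% of WT spleen CD8 clonotypes, and in 26.4% of KO lung CD4, 23.7% of KO thymus Treg and 30.8% of KO spleen CD4 clonotypes.

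**Figure D3:**
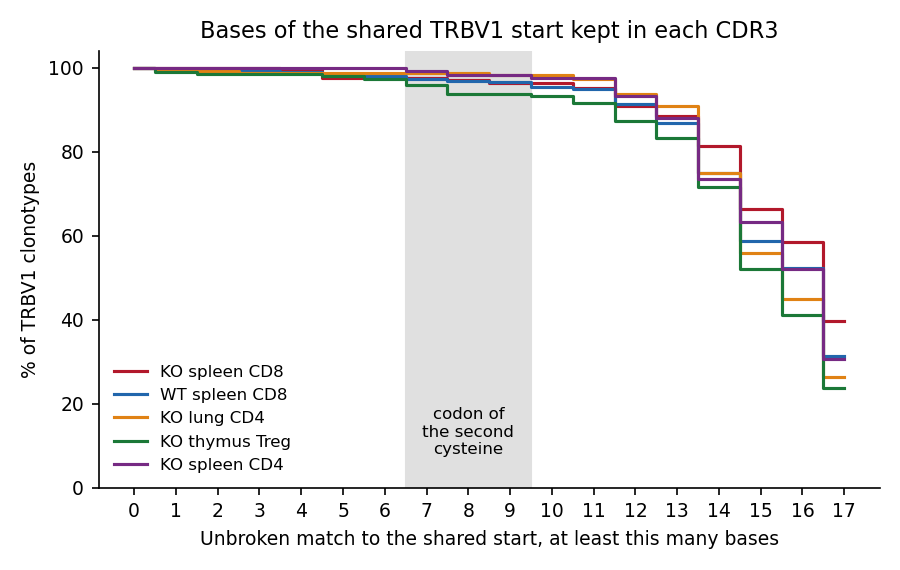
Percent of TRBV1 clonotypes in each library whose CDR3 matches the shared start without a break for at least the number of bases on the horizontal axis; the grey band marks the codon of the second cysteine. All 5 lines stay above 93% through the band and drop steeply beyond base 12.

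Out-of-frame and stop-containing TRBV1 rearrangements, which make no receptor, were compared with productive ones among those that start with the shared first codon, a filter chosen after seeing the data. Of 153 nonproductive ones 9 had a match of under 9 bases (5.88%, interval 2.72 to 10.9), against 43 of 1611 productive ones (2.67%, 1.94 to 3.58). In KO spleen CD4 alone 4 of 17 nonproductive ones did. Without that library the shares were 5 of 136 (3.68%, 1.20 to 8.37) and 41 of 1494 (2.74%, 1.98 to 3.70), and the intervals overlapped either way. By share, TRBV1 made up 6.28% of productive and 3.74% (16 of 428) of nonproductive clonotypes in KO spleen CD8, and 5.58% and 5.16% (73 of 1415) in WT spleen CD8. It made up 6.56% and 3.16% (16 of 507) in KO lung CD4, 5.05% and 4.66% (34 of 729) in KO thymus Tregs, and 6.79% and 5.79% (18 of 311) in KO spleen CD4. The ratio of productive to nonproductive share was 1.68 (1.02 to 2.78) in KO spleen CD8 and 2.08 (1.26 to 3.42) in KO lung CD4, and between 1.08 and 1.17 in the other 3. Most of 19 V segments were past the fold in this measure, 89.5% of them in KO spleen CD8, 63.2% in WT spleen CD8, 94.7% in KO lung CD4, 78.9% in KO thymus Tregs and 78.9% in KO spleen CD4. The median ratio of the 19 was 1.58 in KO spleen CD8 and 1.41 in KO lung CD4, where TRBV1 ranked 9th and 4th from the highest. TRBV1 lay below the median segment in WT spleen CD8 (1.08 against 1.20, 13th), KO thymus Tregs (1.08 against 1.53, 14th) and KO spleen CD4 (1.17 against 1.60, 13th). With at least 2 reads per clonotype the KO spleen CD8 ratio of TRBV1 was 1.01.

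After the cysteine the germline serine and alanine were the most used residues. Serine was the residue at position 4 in 94.8% of TRBV1 clonotypes and alanine at position 5 in 78.2%, and arginine (3.51%) and glycine (8.06%) came next. Position 6, where the V end meets D, held aspartate in 32.9% and glycine in 28.2%. CDR3s beginning CTCSADR made up 15.7% (26 of 166, interval 10.5 to 22.1) in KO spleen CD8 and 8.37% (78 of 932, 6.67 to 10.3) in WT spleen CD8. They made up 9.55% (21 of 220, 6.01 to 14.2) in KO lung CD4, 5.26% (10 of 190, 2.55 to 9.47) in KO thymus Tregs and 5.13% (6 of 117, 1.90 to 10.8) in KO spleen CD4. The KO spleen CD8 interval lay above those of WT spleen CD8 and of the Tregs and overlapped those of KO lung CD4 and KO spleen CD4. All 26 clonotypes in KO spleen CD8 were kept when those 1 base from a form with 10 or more times their reads were left out (16.4%). CTCSAG was the most used of the beginnings examined, at 19.9% in KO and 25.6% in WT spleen CD8 and between 18.9% and 22.7% in the 3 libraries of the CD4 lineage. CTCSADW, in which the start is followed by tryptophan, stood at 7.83% in KO and 4.61% in WT spleen CD8, and at 6.82% in KO lung CD4, 2.11% in KO thymus Tregs and 5.13% in KO spleen CD4. These beginnings were chosen after their values were seen.

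Hydrophobic residues at both positions 6 and 7 were rare in TRBV1. They were found in 4 of 1605 standard TRBV1 CDR3s (0.249%) and in 242 of 25160 of the others (0.962%). By library TRBV1 had 0 of 165 in KO spleen CD8 (which allows a share of up to 1.82%, as 3 counts of the total) and 3 of 920 in WT spleen CD8 (0.326%), against 0.556% and 1.04% of the other segments. It had 0 of 218 in KO lung CD4 (up to 1.38%), 1 of 185 in KO thymus Tregs (0.541%) and 0 of 117 in KO spleen CD4 (up to 2.56%), against 0.483%, 1.39% and 0.804%. In the 3 libraries with a count of 0 the allowed share exceeded that of the others, so a lower share cannot be told there. Position 6 also covers the last bases of the shared start, and their part in these values was not tested. Where the count was 0, the difference given next is minus the share of the others. Its direction was then fixed, so neither the direction nor the SD measures agreement between mice. The TRBV1 value was below that of the others in 5 of 5 libraries, with a mean difference of -0.721 ± 0.146 percentage points (SD, n = 4 mice, the libraries of mouse 617 averaged; exact two-sided sign-flip permutation test, p = 0.125, adjusted p = 0.188 over 6 such comparisons). With 4 mice 0.125 is the smallest p this test can give, so none of the comparisons of TRBV1 with the other segments can pass 0.05.

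TRBV1 CDR3s were on average slightly longer than those of the other segments once CDR3s that were not standard were set aside. Among standard CDR3s the TRBV1 mean was 13.6 ± 1.40 residues (SD over clonotypes) in KO spleen CD8 and 13.6 ± 1.41 in WT spleen CD8, against 13.2 ± 1.40 and 13.3 ± 1.46 for the others. It was 13.3 ± 1.27 in KO lung CD4, 13.7 ± 1.33 in KO thymus Tregs and 13.1 ± 1.31 in KO spleen CD4, against 13.1 ± 1.33, 13.6 ± 1.39 and 13.1 ± 1.29. The difference was positive in 5 of 5 libraries, 0.395, 0.289, 0.195, 0.147 and 0.0310 residues in the same order, with a mean of 0.190 ± 0.126 (SD, n = 4 mice; exact sign-flip permutation p = 0.125, adjusted 0.188). At the J mix of TRBV1 it was -0.0588 in KO spleen CD4 and positive in the other 4 (mean 0.165 ± 0.177, exact permutation p = 0.25). Ordered by the mean difference over the 5 libraries (0.211 for TRBV1), it was 15th of 18 segments from the shortest, between TRBV12-2 and TRBV17.

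Over all productive clonotypes the sign was the opposite, with a mean difference of -0.978 residues over the 4 mice (range over libraries -1.50 to -0.382, exact permutation p = 0.125). Between 4.14% and 7.43% of the clonotypes of other segments were not standard, against 0 to 2.63% of TRBV1 clonotypes, and leaving these out turned the sign. Between libraries, standard TRBV1 CDR3s differed by -0.00573 residues for KO minus WT spleen CD8. Their means were longer by 0.591 in KO thymus Tregs than in KO spleen CD4 cells, where the other segments differed by 0.475, and by 0.490 in KO spleen CD8 than in KO spleen CD4, where the others differed by 0.126. The lung minus spleen difference in KO CD4 cells was 0.188. The 95% intervals, from the spread over clonotypes alone, were -0.238 to 0.227 for KO minus WT spleen CD8, 0.285 to 0.896 for Treg minus KO spleen CD4, 0.170 to 0.810 for KO spleen CD8 minus KO spleen CD4 and -0.103 to 0.480 for lung minus spleen. Clonotypes are not replicates of a condition, so no interval covers the spread between mice.

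**Figure D4:**
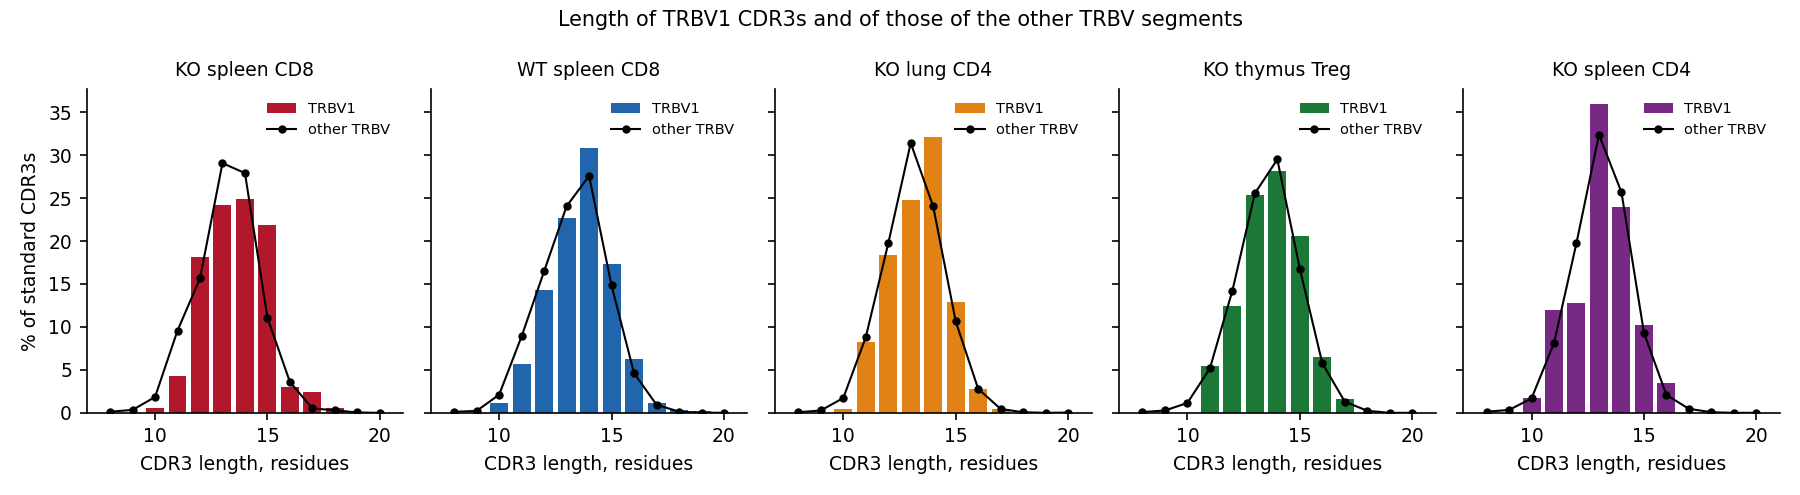
Length in residues of standard CDR3s, as percent of the standard CDR3s of TRBV1 (bars) and of the other TRBV segments (line), in each library. Means lie between 13.1 and 13.7 residues for TRBV1, with the bars leaning to the right of the line most in KO spleen CD8.

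TRBV1 joined the TRBJ1 cluster somewhat more often than the other segments did. TRBJ1 segments made up 46.4% (interval 38.6 to 54.3) of TRBV1 clonotypes in KO spleen CD8 and 35.5% (32.4 to 38.7) in WT spleen CD8, against 33.4% and 29.7% of the others. They made up 45.5% (38.7 to 52.3) in KO lung CD4, 30.0% (23.6 to 37.1) in KO thymus Tregs and 35.9% (27.2 to 45.3) in KO spleen CD4, against 36.5%, 29.7% and 33.8%. The ratio was above 1 in 5 of 5 libraries, between 1.01 and 1.39, with a mean log2 ratio of 0.19 ± 0.17 (SD, n = 4 mice; exact sign-flip permutation p = 0.125, adjusted 0.188). Among standard CDR3s alone the mean log2 ratio was 0.169 (exact sign-flip permutation p = 0.25). That p is above the smallest possible, so the ratio was then not above 1 in all 4 mice.

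Of 12 TRBJ segments, 3 were past the fold in the median library, which is 25% of them, while over the 18 other TRBV segments with a mean share of at least 1% it was 31.5% of 216 pairs. TRBJ1-6 had the highest ratio, with 7.23% of TRBV1 clonotypes in KO spleen CD8 and 5.79% in WT spleen CD8 against 2.66% and 3.41% of the others. In KO lung CD4, KO thymus Tregs and KO spleen CD4 it had 7.73%, 3.68% and 4.27% against 3.99%, 3.67% and 3.73%. Its median ratio was 1.70, at most 2.71 and higher in 5 of 5. TRBJ1-4 was higher in 5 of 5 as well (median 1.31, range 1.11 to 1.62). TRBJ1-2 was lower in 5 of 5 (median 0.696, range 0.438 to 0.872), although it carries the most read TRBV1 clonotype of all and so took 23.1% of TRBV1 reads against 4.55% of TRBV1 clonotypes. For each of these 3 the exact sign-flip permutation p over 4 mice was 0.125, with an adjusted p of 0.25 over the 12 segments. The most used segment was TRBJ2-7, with 20.6% of TRBV1 clonotypes pooled. Its share was 19.9% in KO and 22.7% in WT spleen CD8, close to the 20.3% and 23.1% of the others, but 14 of 117 in KO spleen CD4, against 18.7% of the others. The other 8 had median ratios between 0.824 and 1.23.

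**Figure D5:**
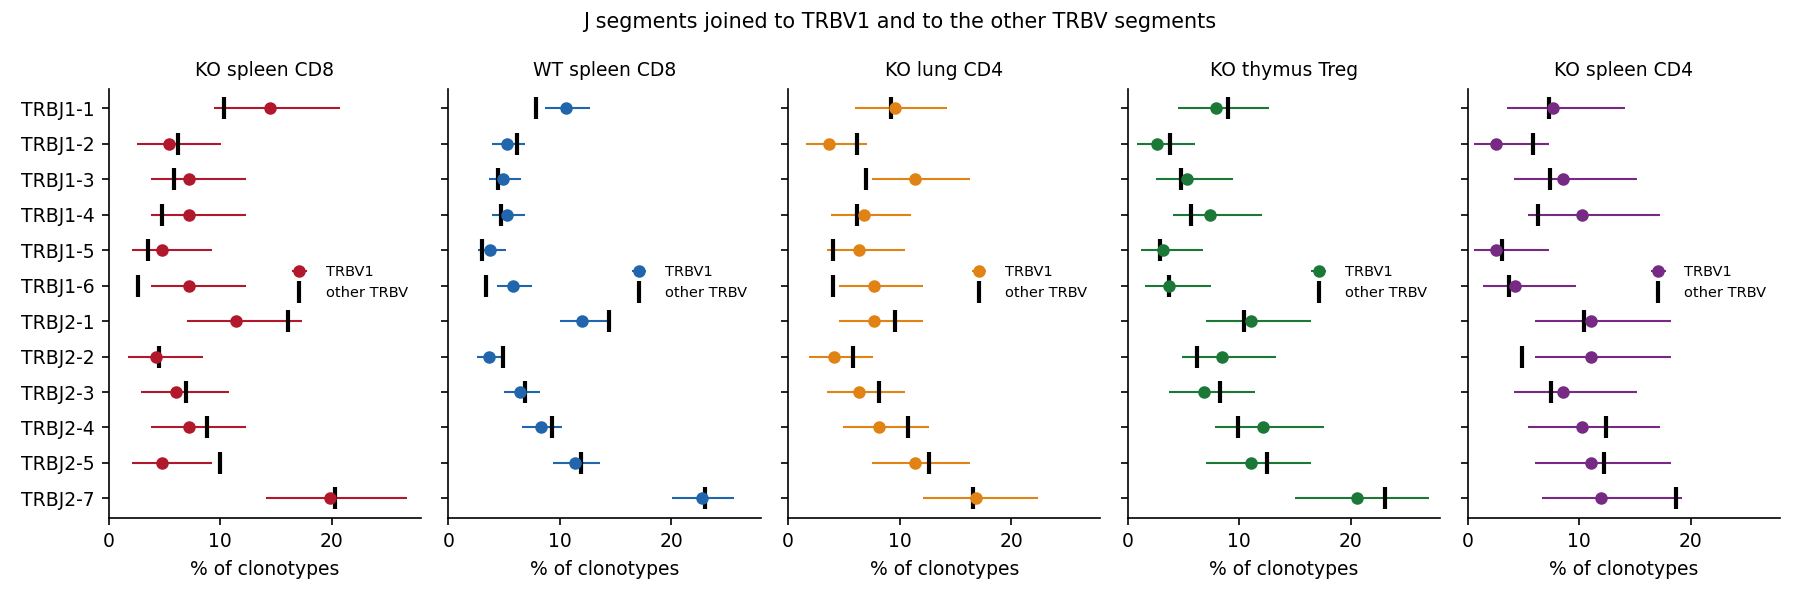
Percent of clonotypes joined to each TRBJ segment, for TRBV1 (points, with exact 95% intervals) and for the other TRBV segments (black ticks), in each library. TRBJ1-6 points lie right of the tick or on it in every panel, and TRBJ1-2 points lie left of it.

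The second D segment was listed less often for TRBV1. TRBD2 lies downstream of the TRBJ1 cluster, so the comparison was made among clonotypes with TRBJ2. There TRBD2 was listed for 29.2% (26 of 89) in KO spleen CD8 and 35.1% (211 of 601) in WT spleen CD8, against 46.2% and 48.3% of the other segments. It was listed for 29.2% (35 of 120) in KO lung CD4, 31.6% (42 of 133) in KO thymus Tregs and 30.7% (23 of 75) in KO spleen CD4, against 43.8%, 44.9% and 46.1%. The mean log2 ratio was -0.55 ± 0.08 (SD, n = 4 mice), lower in 5 of 5 libraries (exact sign-flip permutation p = 0.125, adjusted 0.188). The lower TRBD2 share went with more clonotypes listed with TRBD1 and more with no D. TRBD1 was listed more often for TRBV1 in every library. The gap ran from 32.3% against 31.1% in KO thymus Tregs to 36.7% against 27.1% in KO lung CD4. In KO spleen CD8 TRBD1 stood at 37.1% against 27.8% of the others. No D was listed for 33.7% in KO and 31.3% in WT spleen CD8, against 25.9% and 23.7% of the others. In KO lung CD4, KO thymus Tregs and KO spleen CD4 this share was 34.2%, 36.1% and 41.3%, against 29.1%, 24.1% and 28.9%. The V end was listed past the 17 shared bases in 17.4% to 25.4% of TRBV1 clonotypes, and in those a D segment was listed less often, in 54.1% against 64.3% of the remaining TRBV1 clonotypes in KO spleen CD8, and in 48.9% against 69.2% in WT spleen CD8. Its part in the D result was not tested.

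Joins with no inserted base, as far as the listed segment ends show, were found in 39.8% of TRBV1 clonotypes in KO spleen CD8 and 42.6% in WT spleen CD8, against 46.9% and 40.9% of the others. In KO lung CD4, KO thymus Tregs and KO spleen CD4 they were found in 48.2%, 26.3% and 52.1%, against 43.1%, 21.9% and 43.1%. TRBV1 was higher in 4 of 5 libraries, with a mean log2 ratio of 0.14 ± 0.16 (SD, n = 4 mice; exact sign-flip permutation p = 0.25). Tregs had the lowest share in TRBV1 and in the other segments alike.

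Of 1540 distinct nucleotide forms of TRBV1, 1467 were present in 1 library, 61 in 2, 12 in 3 and none in 4 or 5. The same count for the other segments is not given here, and their sharing by pair of libraries is given below. Of the 12, the one with the most reads was CTCSADRAN with TRBJ1-2, described with the leading clonotypes. The next were CTCSAGG with TRBJ2-1 (112 reads in KO spleen CD8, 36 in WT spleen CD8 and 108 in KO lung CD4) and a CTCSAQG clonotype with TRBJ1-1 (41 reads in KO lung CD4, 47 in KO thymus Tregs and 59 in KO spleen CD4). The latter, of 36 bases, is not the CTCSAQG clonotype with TRBJ1-1 that led KO lung CD4, which has 33 bases. Then came CTCSADRGN with TRBJ1-6 (14 reads in WT spleen CD8, 70 in KO lung CD4 and 46 in KO spleen CD4) and CTCSDWG with TRBJ2-1 (9, 100 and 2 reads in the same libraries). The CTCSAQG clonotype of 36 bases is the one of these 5 found in all libraries of the CD4 lineage and in neither CD8 library.
CTCSAGG with TRBJ2-1: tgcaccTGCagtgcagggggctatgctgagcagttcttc
CTCSAQG with TRBJ1-1: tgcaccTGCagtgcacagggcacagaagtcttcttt
CTCSADRGN with TRBJ1-6: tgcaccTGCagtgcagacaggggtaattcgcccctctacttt
CTCSDWG with TRBJ2-1: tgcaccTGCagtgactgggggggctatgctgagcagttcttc
The last keeps the cysteine codon, again in capitals, and ends its match to the shared start soonest.

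By pair of libraries, KO and WT spleen CD8 shared 22 TRBV1 clonotypes, 13.3% of the KO and 2.36% of the WT ones, against 12.6% and 1.96% for standard CDR3s of the other segments. The shared TRBV1 clonotypes held 68.8% of TRBV1 reads in KO and 6.55% in WT. KO spleen CD8 and KO lung CD4 of mouse 617 shared 17, 10.2% and 7.73% of their TRBV1 clonotypes, against 7.95% and 6.41% for the others. WT spleen CD8 and KO lung CD4, of different mice, shared 21 (2.25% and 9.55%, against 1.65% and 8.62%). WT spleen CD8 shared 11 with KO spleen CD4 (1.18% and 9.40%, against 0.999% and 10.1%). It shared 7 with KO thymus Tregs (0.751% and 3.68%, against 0.714% and 3.26%). KO lung CD4 shared 8 with KO spleen CD4 (3.64% and 6.84%, against 2.28% and 4.42%). It shared 2 with KO thymus Tregs (0.909% and 1.05%, against 1.55% and 1.36%). KO spleen CD8 shared 4 with KO spleen CD4 (2.41% and 3.42%, against 1.75% and 2.75%). KO spleen CD8 and KO thymus Tregs shared 1 (0.602% and 0.526%, against 1.45% and 1.03% for the others). KO thymus Tregs and KO spleen CD4 shared 4 (2.11% and 3.42%, against 1.06% and 2.35%). Read as amino acids there were 1347 distinct TRBV1 CDR3s, of which 6 were found in 4 libraries and 20 in 3, without the same count for the other segments. Among the 6, one beginning CTCSADRG and one beginning CTCSADWGG had 4 nucleotide forms each, and the most forms of any TRBV1 CDR3 was 5. Within a library, 2.50% of TRBV1 CDR3s in KO spleen CD8 and 10.4% in WT spleen CD8 had more than 1 nucleotide form, against 4.04% and 7.62% of the other segments. The WT library also held the most clonotypes, and the part of this number in its share was not tested.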

How the data were processed

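Per the labels' protocols, libraries of TCRβ transcripts were made from sorted T cells with a SMARTer profiling kit. Per the submitters' processing notes, the build was mm10. Which aligner, clonotype caller, error correction and read filters were used is not given in the sources used here. Of 42 samples, 5 libraries were used and 37 were not analysed here. Each deposited row gives a clonotype's read count, not normalized, and its fraction of the file's reads, per the file headers. The segment ends are other values, 0-based positions in bases, per the file headers. No molecular identifier is stated, so reads are PCR copies, and shares were counted per clonotype, that is per row.

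Shares carry exact Clopper-Pearson 95% intervals and ratios of shares carry log intervals. All cover counting error only, since each group has 1 library. TRBV1 was set against the other segments of the same library with exact two-sided sign-flip permutation tests over mice. The shared start was read as the most common base at each position while its share exceeded 40%. A clonotype had no insert when the listed V, D and J ends left no base between them. The intervals of shares and ratios, the search for 1-base neighbours and the draw to equal depth were tested on made-up data. The sign-flip test was tried on 1 worked example, and the other steps were not tested in this way. Segment names and coordinates came from RefSeq (GRCm38.p6), where 15 of 15 symbols sought were found. Named were TRBJ segments past the fold in the median library and the most used, the 3 most read TRBV1 clonotypes per library, 5 found in most libraries, those without the cysteine, and the 3 segments most like TRBV1. The members, lists and comparisons were chosen with earlier results of these data known. Alternatives were at least 2 reads per clonotype, standard CDR3s, removal of clonotypes 1 base from a form with 10 or more times their reads, 1 draw to 96229 productive reads, and reads as weights. Python 3.11.15, pandas 2.3.3 and SciPy 1.17.1 were used.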

Additional observations from a re-analysis of the deposited data

How the results depend on the processing

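Of 115 values, from 23 results under 5 alternatives, 12 were counted as changed, none of them under removal of 1-base neighbours or under equal depth. A tested result counted as changed when its direction turned. Any other counted as changed when it left the interval of the reported value. A turned direction also counted where the reported ratio was past the fold or the length interval was all of 1 sign. Other untested values could turn direction uncounted. The length difference of KO minus WT spleen CD8 did so, from 0.00204 to -0.0170 with at least 2 reads. Standard CDR3s turned the length of TRBV1 minus the rest to 0.190. In KO spleen CD8 the mean of the other segments went from 14.2 to 13.2 residues and that of TRBV1 stayed at 13.6. With at least 2 reads the productive over nonproductive share became 1.01 in KO spleen CD8 and 0.776 in WT spleen CD8. With reads as weights the share ratio of TRBV1 was 2.36 for KO over WT spleen CD8, 0.354 for KO lung CD4 over KO spleen CD4, 0.419 for KO thymus Treg over KO spleen CD4 and 2.41 for KO spleen CD8 over KO lung CD4. The length difference became 0.112 for KO spleen CD8 minus KO spleen CD4 and -0.307 for KO lung CD4 minus KO spleen CD4, the log2 ratio of joins without inserts -0.24, and the productive over nonproductive share 0.895 in KO lung CD4 and 3.33 in KO spleen CD4. The causes of the changes with reads as weights were not tested. No paired analysis was possible because each group has 1 library with values and no pair of these groups shares more than 1 mouse. Depth limits rare features most in KO spleen CD4, with 117 TRBV1 clonotypes.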

Other observations

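Of the 1625 TRBV1 clonotypes, 11 did not begin with cysteine. Their first residue was arginine in 6, tyrosine in 4 and histidine in 1, and each had 1 read. The foreign stretch seen in 3 TRBV1 clonotypes was found in 68 of 3072 listed clonotypes of the KO spleen CD8 library and 28 of 18118 of the WT spleen CD8 library. It was found in 36 of 3861 in KO lung CD4, 44 of 4490 in KO thymus Treg and 22 of 2035 in KO spleen CD4. Nearly all had 1 read, with 68 and 29 reads in all in the CD8 libraries. The second D segment was also listed with TRBJ1 segments, which lie upstream of it. Among TRBV1 clonotypes with TRBJ1 these were 2 of 77 (2.60%) in KO spleen CD8 and 4 of 331 (1.21%) in WT spleen CD8. The other segments had 3.26% and 3.48%. In KO lung CD4, KO thymus Tregs and KO spleen CD4 they were 0 of 100, 5 of 57 (8.77%) and 0 of 42, against 4.90%, 5.47% and 3.13%. The most read nonproductive TRBV1 sequence had 208 reads in KO spleen CD8 and 7 in WT spleen CD8, and 119 in KO lung CD4, 50 in KO thymus Tregs and 14 in KO spleen CD4.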
